A study of Mus musculus with 18 samples.

Results

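The insulin-like growth factor (IGF) ligands, their receptors and the IGF binding proteins were examined in bone marrow mesenchymal stem cells (MSCs). The groups were MSCs of young mice, MSCs of old mice, and old MSCs after co-culture with young MSCs, called rejuvenated old. The members were 10 genes taken by symbol from a table of 27179 genes. They were the ligands Igf1 and Igf2, the receptors Igf1r and Igf2r, and the binding proteins Igfbp2, Igfbp3, Igfbp4, Igfbp5, Igfbp6 and Igfbp7. All 10 were found. All 10 also passed the filter on low values, set at an average of 10 normalized counts across the 18 libraries, but Igfbp2 passed only through the young libraries.

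The cells were primary adherent stromal cells of C57BL6 mice, and RNA was sequenced from 18 cultures in 3 groups of 6. Young MSCs came from mice of 6 weeks and old MSCs from mice of 18 to 24 months, both without treatment. Rejuvenated old MSCs were old MSCs that shared a well with young MSCs for 7 days. A membrane with 0.4 µm pores kept the cell layers apart. According to the study, it let released soluble factors pass and held back the cells. All libraries were from day 7. The labels give 20% fetal bovine serum in the expansion medium and the study's methods 2%, so the amount of bovine IGFs that the serum brought is not known. A co-culture of old cells with old cells was not analysed here, so the age of the second cell layer and its presence cannot be told apart. The labels name biological replicates but not whether they came from separate animals, so the p-values measure the spread between these cultures. The libraries held between 22936251 and 29559194 reads on genes, and the deepest had 1.29 times the reads of the shallowest.

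IGF1 and IGF2 are small secreted hormones that signal for growth and survival through the type 1 receptor, a receptor tyrosine kinase related to the insulin receptor. The type 2 receptor carries no kinase; it takes up IGF2 for breakdown and also carries newly made enzymes with mannose 6-phosphate to the lysosome. Secreted binding proteins hold the ligands, prolong their life or keep them from the receptor until proteases cut them, and marrow stroma and bone cells are known sources of several of them.

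Some libraries stood apart in ways that touch the members. Rejuvenated old replicate 1 held more of the transcripts that mark the young libraries than the others of its group. Over the 27 genes with at most 50 normalized counts in every old library and at least 1000 in every young library, its median level was 2.12% of the young mean. The other 5 rejuvenated old libraries lay between 0.205% and 0.418%, and the old libraries between 0.127% and 0.267%. Replicate 1 was the highest of the 6 rejuvenated old libraries for 24 of these 27 genes, which include Igfbp6. Member results that rest on it are therefore also given without it.

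The young libraries went against the sex given for the mice, which was male. Ddx3y, a Y-linked RNA helicase gene, lay between 0 and 2.06 normalized counts in young MSCs, between 1591 and 1871 in old MSCs and between 1486 and 1950 in rejuvenated old MSCs. Xist, the RNA of the inactive X chromosome, was low throughout, at 21.2 to 41.2 in young and 1.97 to 14.4 in old MSCs. Comparisons with young MSCs thus also set cultures almost without Y-linked transcripts against cultures that had them.

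Markers of other cell types also differed. The 9 macrophage markers summed to 922 to 1042 normalized counts in young MSCs, 13135 to 16386.5 in old MSCs and 12982 to 15855 in rejuvenated old MSCs. Their most abundant gene in the old groups was Lyz2, and Ptprc and Adgre1 had no read in any young library. Of these 9, 4 averaged at least 10 normalized counts in each group, and these 4 were lower in young than in old MSCs. Between rejuvenated old and old MSCs 1 of the 9 was higher, 1 was lower and 7 were not called. In bulk cultures fewer cells of a type and less RNA per cell cannot be told apart, and the part of these cells in the results below was not tested.

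The remaining marker lists placed the cultures as follows. Beside the counts of all marker lists, 21.0% of all genes tested were higher and 20.6% lower after co-culture. In young against old MSCs these shares were 41.6% and 44.1%. The 12 stromal markers summed to 322363 to 348916 in young MSCs, 444860 to 471001 in old and 435493 to 467784 in rejuvenated old MSCs. Each group thus had stromal transcripts at a high summed level. The most abundant marker was Col1a2 in young MSCs (mean 171857) and Cxcl12 in old (197374) and rejuvenated old MSCs (238458). Cxcl12 averaged 9227 in young MSCs, so the higher sums of the old groups largely reflect this gene. Single markers went both ways. Of the 11 that averaged at least 10 normalized counts in each group, which leaves out Thy1, 4 were higher and 7 lower in young than in old MSCs. After co-culture 3 of the 12 stromal markers were higher, 6 lower and 3 not called, with Ly6a at 1.07 and Col1a1 at -0.41. The call of Lepr (-0.31) was lost in 4 of the 12 fits that left out a library. Of the surface markers commonly used to define MSCs, Thy1 and Nt5e had medians of 0.956 and 14.4 in old against 192 and 302 in young MSCs, while Eng, named here after its values were seen, had 7288 in old against 164 in young and Cd44 2902 against 2120. Adipocyte markers (7 genes, led by Lpl) had a median sum of 17266 in young MSCs, 40576 in old and 48360 in rejuvenated old MSCs. Their sum mostly reflects Lpl, and of the 5 that were tested after co-culture 3 were higher, Plin1 was lower (-0.70, adjusted p = 0.0194) and Adipoq was not called, with medians of 1163 in old and 767 in rejuvenated old MSCs. Plin1 was no longer called without old replicate 1 (adjusted p = 0.0538) or rejuvenated old replicate 1 (-0.56, adjusted p = 0.0538). Osteoblast markers (6 genes, led by Spp1) had a median sum of 4633 in young MSCs, 116021 in old and 77874 in rejuvenated old MSCs. Their sum in the old groups was nearly all Spp1, and after co-culture 4 of the 6 were lower, Alpl was higher (0.15, adjusted p = 0.0430) and Sp7 was not called, with medians of 242 in old and 350 in rejuvenated old MSCs. The Alpl call was lost in 9 of the 12 fits that left out a library. Chondrocyte markers (4 genes) had 390.04, 2303 and 3669 in the same order, and Acan was near 0 in each group. The endothelial markers (6 genes) were low in the old groups, at a median sum of 48.2 in old and 58.7 in rejuvenated old MSCs, except for a sum of 421 in rejuvenated old replicate 1. After co-culture Cd34 was higher (1.16, adjusted p = 0.0271, and 0.57, adjusted p = 0.000362, without that replicate) and Kdr lower (-0.91, adjusted p = 0.0200). Kdr passed the filter only through the young libraries, with low means of 9.12 in old and 4.32 in rejuvenated old MSCs. The Cd34 call was lost without old replicate 1 (adjusted p = 0.0506), and that of Kdr without old replicate 2 (adjusted p = 0.0613) or rejuvenated old replicate 6 (adjusted p = 0.0515). In young MSCs the endothelial markers summed to a median of 7113, nearly all of it Cd34, while Cdh5 and Emcn were near 0. Kdr, Tek and Pecam1 had medians of 83.8, 16.6 and 16.7 in young against 7.62, 11.2 and 6.40 in old MSCs. Cd34, the 1 endothelial marker that averaged at least 10 normalized counts in each group, was called higher in young than in old MSCs.

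After co-culture, Igf2, Igfbp4 and Igfbp5 rose and Igf2r fell, each with no overlap between the 6 rejuvenated old and the 6 old libraries. Of all genes tested, 10.4% were higher and 11.6% lower without overlap. Igf1, Igf1r and Igfbp7 were called higher by small amounts with overlapping values, and Igfbp2, Igfbp3 and Igfbp6 did not pass the test. In all, 6 of 10 members were called higher in rejuvenated old than in old MSCs, where 21.0% of the 14353 genes tested were. For the lower direction it was 1 of 10 members, where 20.6% of all genes were called. The median log2 fold change was 0.15 over the members and 0.01 over all genes. The members were chosen with earlier results known, so these counts describe them and test nothing.

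Between young and old MSCs most genes differed, and the members' counts must be read against that. Igfbp2 is left out of these counts, since it passed the filter only through the young libraries. Of the other 9 members, 8 were higher in young MSCs, beside 41.6% of all genes tested, and Igfbp7 was lower, beside 44.1% of all genes. Against rejuvenated old MSCs, 7 of the 9 were higher in young MSCs (41.5% of all genes) and 2 were lower (44.1% of all genes). The 3 comparisons share libraries, so their values are set side by side for each member and no relation between them was computed. Fold changes are on the scale of log2(normalized count + 1), which understates changes of low genes.

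**Figure D1:**
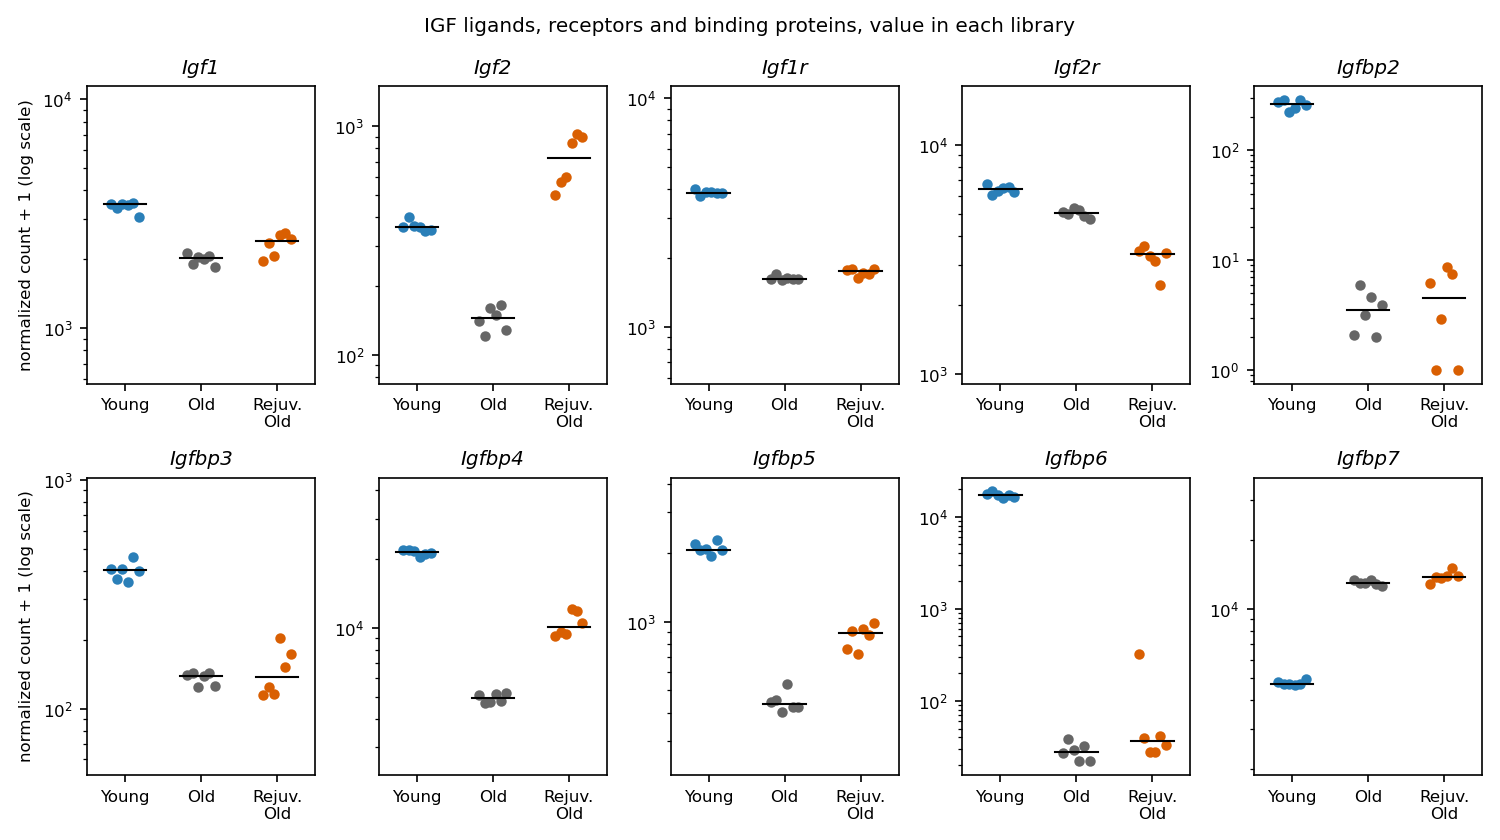
Normalized count + 1 of each member in the 18 libraries, on log axes; each point is a library and each line the median of a group of 6. Igf2 is highest in the rejuvenated old libraries (499 to 928), Igf2r is lowest there (2435 to 3634), and Igfbp6 is above 16000 in the young libraries alone.

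Igf1 (gene number 16000, chromosome 10 of GRCm38.p6 from 87858265 to 87937047) encodes IGF1, the main growth-promoting ligand after birth. In young MSCs it had 3069 normalized counts in the lowest library, 3473 at the median and 3540 in the highest. In old MSCs the lowest, median and highest values were 1849, 2024 and 2128. In rejuvenated old MSCs they were 1973, 2401 and 2606. The young libraries thus lay above all others, and the rejuvenated old range began inside the old range and ran past it, with 4 of 6 libraries above the highest old library. The log2 fold change of rejuvenated old against old MSCs was 0.21 ± 0.06 (SE, adjusted p = 0.00555), and that of young against old was 0.76 ± 0.06 (adjusted p = 3.04e-11). Young MSCs also exceeded rejuvenated old MSCs, by 0.55 ± 0.06 (adjusted p = 9.99e-09). Macrophages are another known source of Igf1, and their part in its level was not tested.

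Igf2 (gene number 16002, chromosome 7 from 142650768 to 142666816) encodes IGF2, the ligand best known from fetal growth and transcribed from the paternal allele in most tissues. Its lowest, median and highest values were 349, 360.3 and 400.4 normalized counts in young MSCs. In old MSCs they were 120.1, 144 and 165. In rejuvenated old MSCs they were 499, 722 and 928. The 3 groups did not overlap, and the order was rejuvenated old, then young, then old. The mean in rejuvenated old MSCs was 5.05 times the old mean and 1.99 times the young mean, so that the level passed that of the young cells instead of stopping short of it. Against old MSCs the log2 fold change was 2.29 ± 0.13 (SE, adjusted p = 2.56e-12), the rank 17 by size among 14353 genes tested. Young MSCs were higher than old by 1.35 ± 0.13 (adjusted p = 9.35e-10) and differed from rejuvenated old MSCs by -0.95 ± 0.13 (adjusted p = 3.18e-07).

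The rejuvenated old libraries also varied among themselves in Igf2. Replicates 1, 2 and 3 had 499, 569 and 599 normalized counts, and replicates 4, 5 and 6 had 845, 928 and 899. The same 3 libraries were the highest of their group for Igfbp4, at 12077, 11811.5 and 10534 against 9231 to 9590 in the others, and for Igf1, Igfbp3 and Igfbp7, so that 5 of the 10 members were higher in each of replicates 4 to 6 than in each of replicates 1 to 3. Of the 14353 genes tested 6.83% were higher in this way and 8.21% lower. Some marker sums split at the same place. Osteoblast markers summed to 66389 to 73071 in replicates 4 to 6 and to 82677 to 94307 in replicates 1 to 3, and chondrocyte markers to 3300 to 3535 and 3802 to 3972. Adipocyte markers were higher in replicates 4 to 6, at 48454 to 54495 against 43012 to 48266, while the stromal, macrophage and endothelial sums overlapped. What lies behind the split was not tested. The labels name no batch that would separate these libraries. Without replicate 1 the Igf2 difference from old MSCs was 2.39 (adjusted p = 5.30e-13).

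RefSeq lists 4 start sites for Igf2, and counts by gene do not show which of them was used. Of its surroundings, Igf2os, an antisense RNA that overlaps it, had at most 6.52 normalized counts in any library. H19, the noncoding RNA that shares its imprinted domain with Igf2 and is transcribed from the maternal allele, had 51.8 to 74.0 normalized counts in young MSCs. In old MSCs H19 had 0 to 1.97 and in rejuvenated old MSCs 0 to 3.81. The difference between these did not pass the test (log2 fold change 0.61 ± 0.41, adjusted p = 0.246, and 0.38 without rejuvenated old replicate 1). H19 passed the filter only through the young libraries, and at so few counts a change of moderate size was not detectable. The high Igf2 level of rejuvenated old MSCs was therefore accompanied by H19 near 0, and that of young MSCs by H19 at a measurable level.

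Igf1r (gene number 16001, chromosome 7 from 67952257 to 68233668) encodes the type 1 receptor, through which both ligands signal. It had 3735 normalized counts in the lowest young library, 3857 at the median and 4001 in the highest. In old MSCs the values were 1593, 1612 and 1698, and in rejuvenated old MSCs 1639, 1744 and 1797. Young MSCs were thus apart from both other groups, which overlapped. The log2 fold change of young against old MSCs was 1.25 ± 0.03 (adjusted p = 3.69e-21) and that of young against rejuvenated old MSCs 1.15 ± 0.03 (adjusted p = 1.68e-20). After co-culture it was 0.09 ± 0.03 above old MSCs (adjusted p = 0.0130), with 4 of 6 libraries above the highest old library. This small difference was lost when each gene was scaled by the median of its chromosome (0.04, adjusted p = 0.347).

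Igf2r (gene number 16004, chromosome 17 from 12682406 to 12769706) encodes the type 2 receptor, which clears IGF2 and sorts lysosomal enzymes. In young MSCs the lowest, median and highest values were 6068, 6409 and 6735 normalized counts. In old MSCs they were 4751, 5048 and 5306. In rejuvenated old MSCs they were 2435, 3325 and 3634. The groups did not overlap, and co-culture was followed by a level farther from that of young MSCs, not nearer to it. Igf2r fell by 0.66 on the log2 scale after co-culture (SE 0.06, adjusted p = 2.71e-08). Igf2r was thus the only member called lower after co-culture, in the same libraries in which Igf2 was higher. Young MSCs exceeded rejuvenated old MSCs by 1.00 ± 0.06 (adjusted p = 9.18e-13) and old MSCs by 0.34 ± 0.06 (adjusted p = 3.25e-05). The last of these was lost when genes were scaled by the median of their chromosome (0.10, adjusted p = 0.173), while the fall after co-culture was then -0.71 (adjusted p = 2.71e-08).

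Airn, a noncoding RNA that overlaps Igf2r on the opposite strand and silences its paternal copy in many tissues, had medians of 269.9 normalized counts in young MSCs, 122 in old and 118 in rejuvenated old MSCs. The rejuvenated old and old values of Airn overlapped (log2 fold change -0.05 ± 0.10, adjusted p = 0.735, and 0.01 without rejuvenated old replicate 1), so the fall of Igf2r was not accompanied by a called change of Airn. The strand setting of the counting is not given in the sources used here, so reads of a gene and its antisense partner cannot be told apart.

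The stretch before the start of Igf2r is given because it differs from those of the other members in its CACGTG hexamers, and those of Igfbp4 and Igfbp5 because both genes rose after co-culture. Each run holds 250 bases before the start and the first base of the transcript, 5′ to 3′ on the strand of the gene, from RefSeq on GRCm38.p6. The first lies on the minus strand at chr17:12769706-12769956, the next on the plus strand at chr11:99040994-99041244, and the last on the minus strand at chr1:72874865-72875115. The start used for Igfbp4, at base 99041244, lies 1239 bases inside the span that RefSeq gives for the gene, while those of Igf2r and Igfbp5 are the ends of their spans. Capitals mark CACGTG and the longer GTCACGTGAC that contains it in Igf2r, TATAAA in Igfbp4 and TATTTAA in Igfbp5.
Igf2r: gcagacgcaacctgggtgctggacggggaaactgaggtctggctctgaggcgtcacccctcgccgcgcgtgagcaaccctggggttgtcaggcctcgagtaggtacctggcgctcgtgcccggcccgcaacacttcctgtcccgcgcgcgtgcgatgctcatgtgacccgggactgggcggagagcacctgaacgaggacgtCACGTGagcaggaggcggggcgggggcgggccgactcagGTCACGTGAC
Igfbp4: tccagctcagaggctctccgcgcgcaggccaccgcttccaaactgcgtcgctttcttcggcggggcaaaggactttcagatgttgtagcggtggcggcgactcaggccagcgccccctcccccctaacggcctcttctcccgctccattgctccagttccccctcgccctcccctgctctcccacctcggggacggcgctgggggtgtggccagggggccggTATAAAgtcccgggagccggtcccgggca
Igfbp5: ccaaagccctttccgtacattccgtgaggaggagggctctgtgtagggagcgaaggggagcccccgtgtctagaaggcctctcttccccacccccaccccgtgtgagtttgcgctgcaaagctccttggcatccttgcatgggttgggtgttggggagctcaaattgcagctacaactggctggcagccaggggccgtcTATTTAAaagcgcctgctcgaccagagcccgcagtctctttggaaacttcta

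CACGTG is the E-box of basic helix-loop-helix factors, and the palindrome GTCACGTGAC, the longest around a CACGTG of Igf2r at 10 bases, is known as the lysosomal gene element bound by TFEB. In the same window, 6.05% of the 32851 RefSeq promoters held CACGTG, 0.438% held it at least 2 times, as Igf2r does, and 0.244% held GTCACGTGAC. All 10 members had an entry, with 14 start sites in all. CACGTG was found at 2 of these, that of Igf2r and 1 of the 2 of Igfbp2, and GTCACGTGAC at that of Igf2r alone. TATAAA, the usual TATA box, was found on either strand in 12.4% of all promoters, and among the members before Igfbp4 and Igfbp6. TATTTAA, a variant of it, was found on either strand in 4.19% of all promoters and before Igfbp5. A match describes the letters only.

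**Figure D2:**
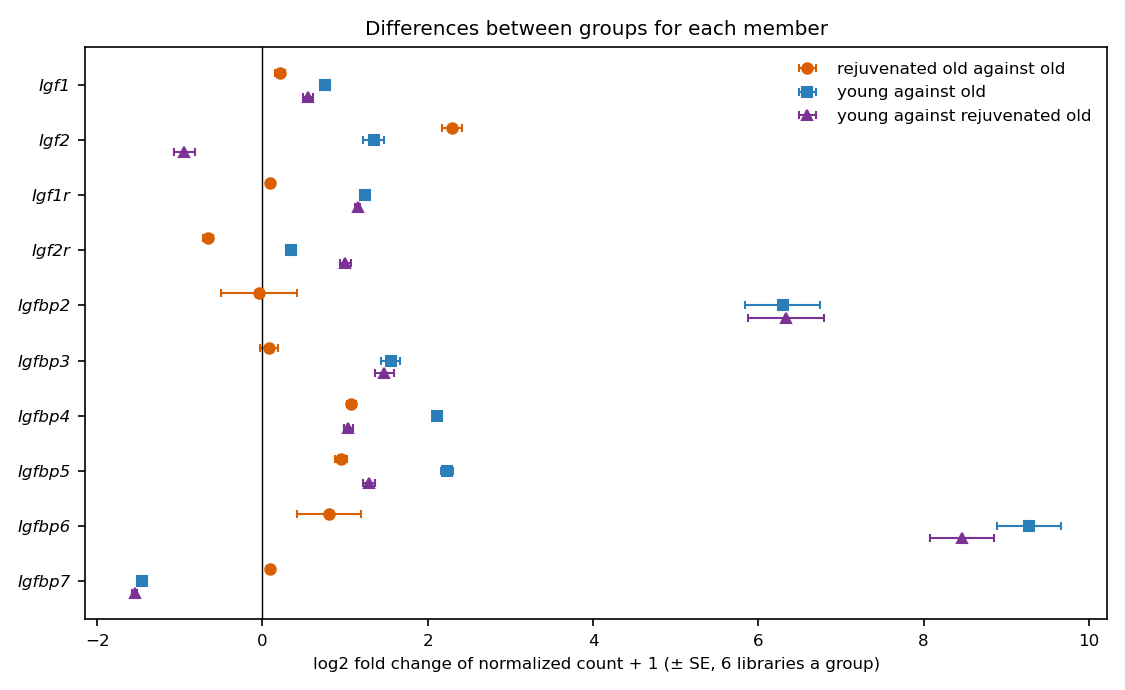
Log2 fold change of normalized count + 1 for each member in the 3 comparisons, with bars for the SE (6 libraries a group). Igf2 and Igf2r lie on opposite sides of 0 in rejuvenated old against old MSCs (2.29 and -0.66), and Igfbp7 is the member that was lower in young than in old MSCs (-1.46).

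Igfbp4 (gene number 16010, chromosome 11 from 99040005 to 99052655) encodes a binding protein that mostly restrains IGF action and is cut by the protease PAPP-A. Young MSCs had 20398 normalized counts in the lowest library, 21429 at the median and 21939 in the highest. Old MSCs had 4697, 4920.2 and 5174, and rejuvenated old MSCs 9231, 10062 and 12077. The groups did not overlap, with rejuvenated old MSCs between old and young. The log2 fold change was 1.08 ± 0.06 for rejuvenated old against old MSCs (SE, adjusted p = 8.67e-13) and 2.12 ± 0.06 for young against old (adjusted p = 4.13e-20). Young MSCs remained above rejuvenated old MSCs by 1.04 ± 0.06 (adjusted p = 3.20e-14).

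Igfbp5 (gene number 16011, chromosome 1 from 72858065 to 72874865) encodes a binding protein that attaches to the bone matrix and is abundant in osteoblasts. Its lowest, median and highest values were 1925, 2061 and 2267 normalized counts in young MSCs. In old MSCs they were 399.7, 433 and 534. In rejuvenated old MSCs they were 721, 888 and 988. As for Igfbp4, the rejuvenated old libraries all lay between the old and the young ones. The log2 fold changes were 0.95 ± 0.07 for rejuvenated old against old (SE, adjusted p = 6.38e-10) and 2.23 ± 0.07 for young against old MSCs (adjusted p = 2.24e-18). Young exceeded rejuvenated old MSCs by 1.29 ± 0.07 (adjusted p = 8.12e-14).

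Igfbp2 (gene number 16008, chromosome 1 from 72824480 to 72852474) encodes a binding protein of serum and bone that prefers IGF2 and lies next to Igfbp5, with 5590 bases between the ends of the genes. Young MSCs had 221 normalized counts in the lowest library, 266 at the median and 289.9 in the highest. Old MSCs had 1 to 5 reads per library and 16 in all, and rejuvenated old MSCs 0 to 8 reads and 22 in all. The neighbours therefore differed after co-culture in what was seen, with Igfbp5 raised in 6 of 6 libraries and Igfbp2 near 0 in both old groups. The log2 fold change of Igfbp2 was -0.04 ± 0.46 for rejuvenated old against old MSCs (adjusted p = 0.951), or -0.33 to 0.30 with a library left out, and at so few reads a change of moderate size was not detectable. The log2 fold change of young MSCs was 6.29 against old and 6.34 against rejuvenated old MSCs. Since Igfbp2 passed the filter only through the young libraries, no p-value is given for these, and the reads themselves show the difference.

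Igfbp6 (gene number 16012, chromosome 15 from 102144186 to 102149512) encodes the binding protein with the strongest preference for IGF2. In young MSCs it had 16050.01 normalized counts in the lowest library, 17194 at the median and 19041 in the highest. Old MSCs had 20.9, 26.9 and 37.4, so the young mean was 628 times the old mean. Rejuvenated old replicate 1 had 319 normalized counts and the other 5 libraries of its group 26.6 to 40.05. Whether young cells, RNA or index reads entered replicate 1 was not tested, so its 319 may not be expression by old cells. Apart from replicate 1, the rejuvenated old values overlapped the old ones. Over all 6 libraries the log2 fold change from old MSCs was 0.81 ± 0.39 (adjusted p = 0.101), which limma did not call, while edgeR did (1.51, adjusted p = 0.0384). Without replicate 1 it was 0.26 (adjusted p = 0.104), so the estimate rested mostly on this library. The 7 members called higher or lower after co-culture were also called without it, with Igf1 at 0.26, Igfbp4 at 1.11, Igfbp5 at 0.98 and Igf2r at -0.68. Young MSCs were higher by 9.27 ± 0.39 against old (adjusted p = 3.13e-16) and by 8.46 ± 0.39 against rejuvenated old MSCs (adjusted p = 1.86e-15), or 9.01 without replicate 1.

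Igfbp6 was not alone in this library. Stc2, which encodes a secreted inhibitor of PAPP-A, had 43.2 normalized counts in replicate 1 and 0 to 7.61 in the other 5. Cd34, a surface marker, had 402 in replicate 1 and 24.2 to 41.9 in the others. Stc2 and Cd34 were named here after their values were seen.

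Igfbp3 (gene number 16009, chromosome 11 from 7206086 to 7215498) encodes the main carrier of IGFs in serum. Its lowest, median and highest values were 358, 403 and 458 normalized counts in young MSCs. In old MSCs they were 123, 138 and 143. In rejuvenated old MSCs they were 113, 137 and 202, with 3 libraries above the highest old library and 3 below the lowest. The spread was thus wider after co-culture, which was not tested, while the medians were close. The log2 fold change from old MSCs was 0.08 ± 0.11 (adjusted p = 0.617), which did not pass the test. Its sign was not fixed, as it was -0.02 without rejuvenated old replicate 4 and 0.15 without rejuvenated old replicate 1. Young MSCs were higher than old by 1.56 ± 0.11 (adjusted p = 1.37e-11) and than rejuvenated old MSCs by 1.48 ± 0.11 (adjusted p = 3.72e-11).

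Igfbp7 (gene number 29817, chromosome 5 from 77349240 to 77408045) encodes a relative that binds IGFs weakly and insulin more strongly, and is secreted by stroma and endothelium. Young MSCs had 4667 normalized counts in the lowest library, 4688 at the median and 4916 in the highest. Old MSCs had 12633, 12942 and 13435, and rejuvenated old MSCs 12805, 13833 and 15114. It was the only member for which every young library lay below every library of the other groups. Young MSCs differed from old by -1.46 ± 0.03 (adjusted p = 1.39e-21) and from rejuvenated old MSCs by -1.55 ± 0.03 (adjusted p = 4.87e-22). After co-culture it was 0.09 ± 0.03 above old MSCs (adjusted p = 0.0275), with 5 of 6 libraries above the highest old library. This call was lost without old replicate 5 (adjusted p = 0.0540), old replicate 6 (adjusted p = 0.0607) or rejuvenated old replicate 5 (adjusted p = 0.0719). It was also lost with the same total per library (adjusted p = 0.0572), 2 groups in the fit (adjusted p = 0.0591) or the replicate numbers as a block (adjusted p = 0.0503). Without rejuvenated old replicate 1, its difference was 0.11 (adjusted p = 0.00434). Igfbp7 overlaps Polr2b, an RNA polymerase subunit gene with a median of 2307 normalized counts in old MSCs, and how shared reads were assigned is not given in the sources used here.

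To compare levels between genes, normalized counts were divided by the length of all exons of the gene in kilobases. On this scale Igfbp6 led the binding proteins in young MSCs with a median of 15462, followed by Igfbp4 with 4853 and Igfbp7 with 3878. In old MSCs Igfbp7 led with 10704, followed by Igfbp4 with 1114 and Igfbp5 with 72.1. The order in rejuvenated old MSCs was that of old MSCs at the top, with Igfbp7 at 11442, Igfbp4 at 2279 and Igfbp5 at 148, except that in replicate 1 Igfbp6 (287) lay above Igfbp5 (127). Which isoforms were transcribed is not known from counts by gene, so these levels are approximate.

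The makeup of the binding protein transcripts differed more between young and old MSCs than their sum. The summed level per kilobase ran from 23479 to 26589 in young MSCs, from 11752 to 12401 in old and from 13134 to 15408 in rejuvenated old MSCs. Igfbp6 made up 60.8% to 64.4% of it in young MSCs, 0.152% to 0.282% in old MSCs and 0.168% to 0.253% in the 5 rejuvenated old libraries other than replicate 1, which had 2.19%. The share of Igfbp7 was 14.6% to 16.8% in young MSCs, 88.9% to 89.9% in old and 79.4% to 83.0% in rejuvenated old MSCs. Igfbp4 made up 8.91% to 9.97% in old and 15.7% to 18.9% in rejuvenated old MSCs, beside 18.7% to 19.9% in young MSCs. These shares are descriptions and were not tested.

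**Figure D3:**
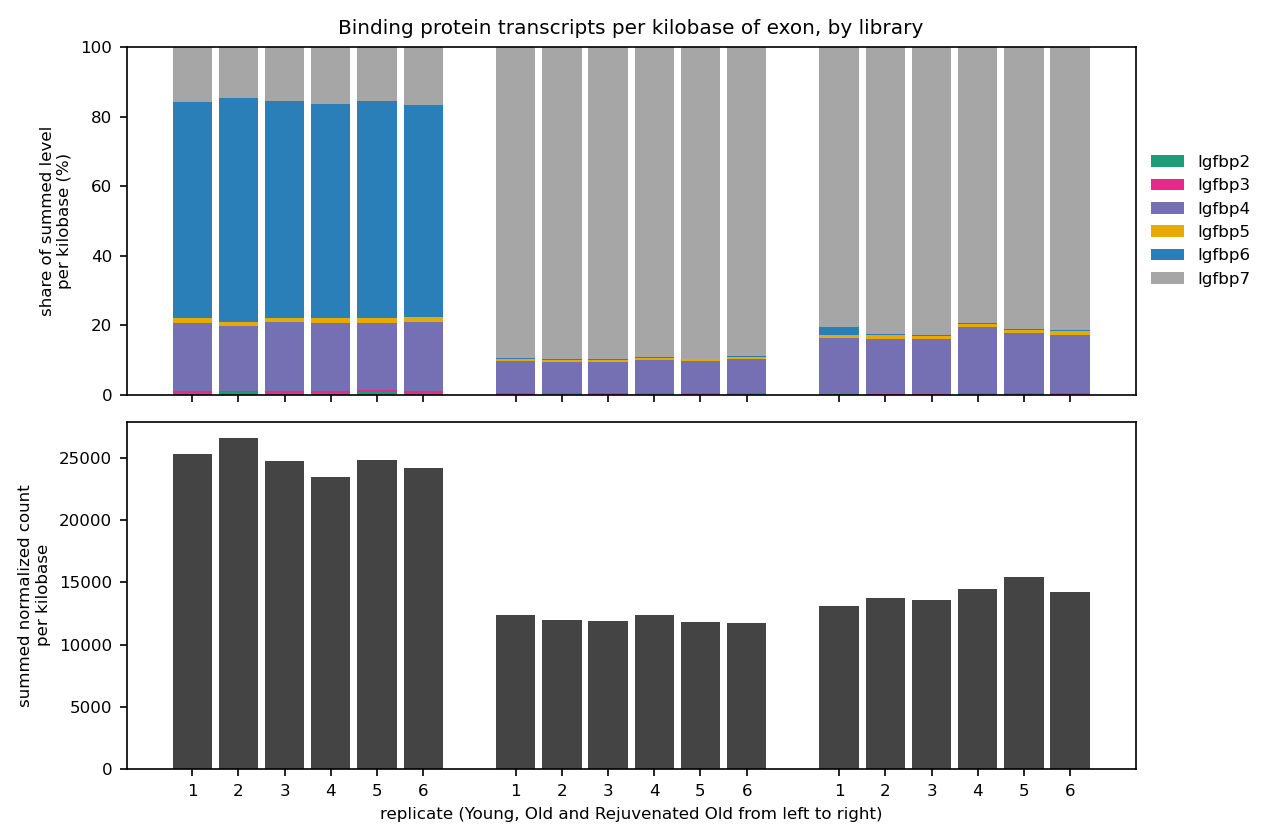
Share of each binding protein in the summed level per kilobase of the 6 binding protein genes (upper bars, %) and that sum in normalized counts per kilobase (lower bars) in each library. Igfbp6 fills 60.8% to 64.4% of the young bars, and Igfbp7 at least 79.4% of every old and rejuvenated old bar.

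Among ligands and receptors, Igf2r had the highest median level per kilobase in each group, at 689 in young MSCs, 542 in old and 357 in rejuvenated old MSCs. Igf1 was next by median, with 351, 204 and 242 in the same order of groups. Igf1r followed in young MSCs with 229.7 and in old MSCs with 96.0, and Igf2 was last there with 63.0 and 25.2. In rejuvenated old replicate 5 Igf1 and Igf2r were level, at 263 and 262. In rejuvenated old MSCs the order of the last pair was not fixed either, since Igf2 ran from 87.3 to 162 and Igf1r from 97.6 to 107. Relative to Igf2r, its clearance receptor, the Igf2 transcript was thus more abundant after co-culture than in either other group.

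Whole chromosomes shifted between young and old MSCs, which bears on several members. The median log2 fold change of young against old MSCs was -0.69 over the 800 tested genes of chromosome 1 and 0.61 over the 1032 of chromosome 7. It was -0.75 on chromosome 16 and -0.46 on chromosome 12, where no member lies, and 0.22 on chromosome 17. The rises of Igf2 and Igf1r on chromosome 7 therefore went with a shift of their chromosome, and those of Igfbp2 and Igfbp5 on chromosome 1 went against it. With each gene scaled by the median of its chromosome in each library, young MSCs exceeded old MSCs by 0.75 for Igf2 (adjusted p = 8.91e-06) and by 0.65 for Igf1r (adjusted p = 3.76e-15). For Igfbp5 the scaled difference was 2.92 (adjusted p = 2.21e-20). In young against rejuvenated old MSCs the scaled differences were -1.49 for Igf2 (adjusted p = 1.55e-10), 0.61 for Igf1r (adjusted p = 1.20e-14), 0.81 for Igf2r (adjusted p = 1.90e-10) and 1.96 for Igfbp5 (adjusted p = 4.47e-17). After co-culture the medians of the members' chromosomes lay between -0.02 and 0.06, and Igf2 was 2.24 higher after the same scaling (adjusted p = 3.64e-12).

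**Figure D4:**
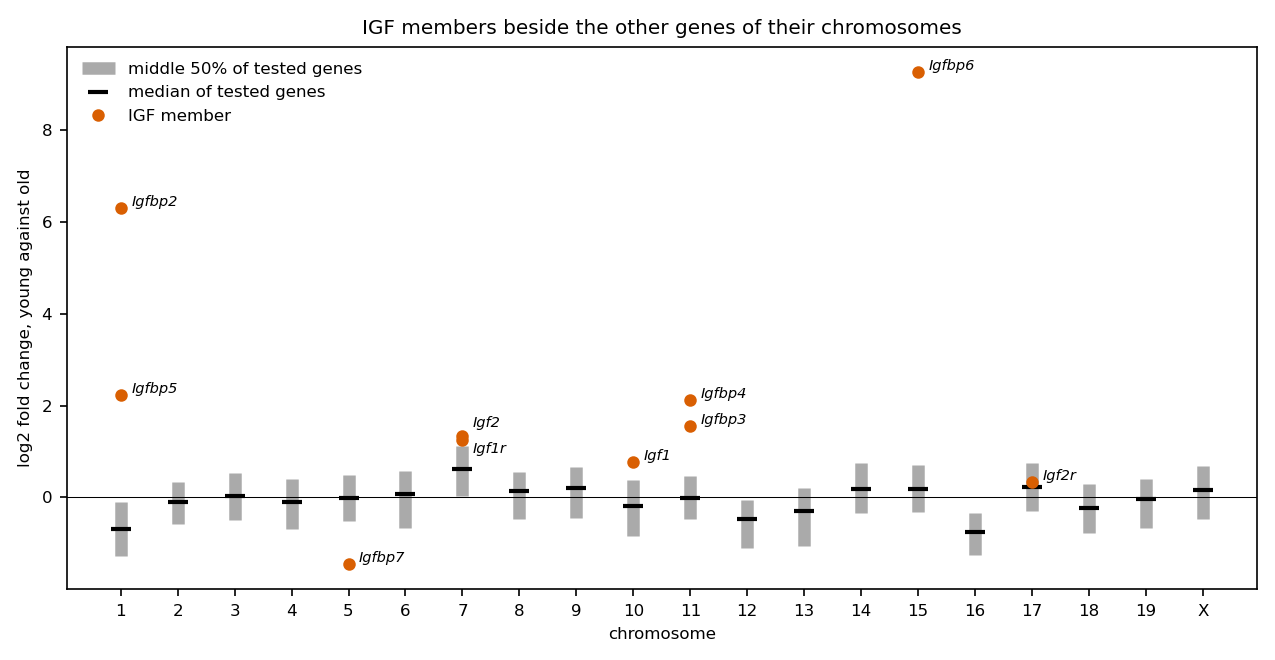
Log2 fold change of young against old MSCs for the members (points) beside the median (dash) and the middle 50% (bar) of the tested genes of each chromosome. Chromosome 1 has a median of -0.69 and chromosome 7 one of 0.61, and Igf2r on chromosome 17 lies close to its chromosome's median of 0.22.

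The proteases that release IGFs from their binding proteins, and the inhibitors of these proteases, were all tested (7 genes). After co-culture 2 were higher, 2 were lower and 3 were not called, with a median log2 fold change of 0.03. For this and the following lists, 21.0% of all genes tested were higher and 20.6% lower after co-culture, and 41.6% and 44.1% in young against old MSCs. Stc1, a stanniocalcin that blocks PAPP-A, had a median of 703 normalized counts in old, 1681 in rejuvenated old and 174 in young MSCs. Its log2 fold change from old MSCs was 1.26 ± 0.07 after co-culture (SE, adjusted p = 4.93e-12) and -1.95 ± 0.07 in young MSCs (adjusted p = 2.70e-17). The rise of Stc1 thus led away from the young level. C1s1, a complement protease that can cut IGFBP-5, rose by 0.40 ± 0.04 (adjusted p = 5.22e-08). Adam12, a metalloprotease with the same kind of substrates, fell by 0.63 (SE 0.08, adjusted p = 6.26e-07), and Htra1, a secreted serine protease, fell by 0.21 (SE 0.06, adjusted p = 0.00567).

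Pappa, which encodes the main protease of IGFBP-4, had medians of 1625 in old, 1476 in rejuvenated old and 72.7 in young MSCs. Its difference after co-culture was -0.21 ± 0.09 (adjusted p = 0.0664), which did not pass the test, but it was called without rejuvenated old replicate 1 (-0.24, adjusted p = 0.0416). The young libraries, which had the most Igfbp4, thus had the least Pappa. Stc2 had 1049 to 1249 normalized counts in young and 0.909 to 3.01 in old MSCs. Its log2 fold change after co-culture was 1.05 ± 0.53 (adjusted p = 0.122). It was 0.45 without rejuvenated old replicate 1 (adjusted p = 0.353) and 1.55 without rejuvenated old replicate 5 (adjusted p = 0.00834). For genes other than the members, leaving out libraries was chosen after the data were seen. In young against old MSCs, 2 of the 6 genes other than Stc2, which averaged under 10 normalized counts in old MSCs, were higher and 4 lower.

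The relatives with an IGFBP-type domain (10 genes tested) showed 5 higher, 1 lower and 4 not called after co-culture, with a median of 0.33. Ccn3, a matrix protein gene listed as Nov, had medians of 7564 in old and 15802 in rejuvenated old MSCs, a log2 fold change of 1.05 ± 0.05 (SE, adjusted p = 1.20e-13). Ccn5, listed as Wisp2, rose from a median of 1894 to 3769 (0.95 ± 0.04, adjusted p = 1.56e-14). Esm1, which encodes the secreted proteoglycan endocan, had a median of 227 in old and 659.8 in rejuvenated old MSCs (1.58 ± 0.23, adjusted p = 9.69e-06). Of these, Ccn5 was higher in young than in old MSCs, while Ccn3 was lower and Esm1 was at 0 to 2.23 in the young libraries. Ccn1 and Ccn2, early response genes of the matrix, rose by 0.36 ± 0.05 (adjusted p = 5.17e-06) and 0.29 ± 0.04 (adjusted p = 1.42e-06). Ccn4, listed as Wisp1, fell by 0.47 (SE 0.06, adjusted p = 1.31e-06). Htra4, named here after its values were seen, was not called (0.41, adjusted p = 0.0608), but was without old replicate 1 (adjusted p = 0.0308) or rejuvenated old replicate 5 (adjusted p = 0.0402). In young against old MSCs 4 of the 9 other than Esm1, which averaged under 10 normalized counts in young MSCs, were higher and 5 lower.

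Receptor adaptors and proximal signalling genes (20 tested of 21, Irs4 having a median of 0 in each group) showed 7 lower and 13 not called after co-culture, beside 20.6% of all genes tested lower and 21.0% higher, with a median of -0.03. Of the 7, the largest fall was that of Pik3cb, a PI3-kinase subunit named here after its values were seen, at 0.42 (SE 0.12, adjusted p = 0.00858), from a median of 91.9 to 64.0. Ptpn1, a phosphatase that switches off the insulin receptor, fell by 0.23 (SE 0.04, adjusted p = 4.17e-05). The adaptors Shc1, Gab1 and Grb2, the phosphatase Ptpn11 and the PI3-kinase subunit Pik3ca fell by between 0.10 and 0.21. Akt2, named here after its values were seen, was not called, but was called lower without old replicate 6 (-0.09, adjusted p = 0.0468). Irs1, the adaptor that links the type 1 receptor to PI3-kinase, had a median of 8203 in old, 8064 in rejuvenated old and 934 in young MSCs. Irs1 was not called after co-culture (-0.02 ± 0.04, adjusted p = 0.620) and was -3.14 ± 0.04 in young against old MSCs (adjusted p = 1.43e-26). Old MSCs therefore had less Igf1r and more Irs1 transcript than young MSCs. Of the 19 genes that averaged at least 10 normalized counts in each group, 9 were higher and 9 lower in young than in old MSCs.

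In the growth hormone axis, which drives Igf1 in the liver (6 genes tested), 3 were higher and 3 not called after co-culture, with a median of 0.05. Jak2, the kinase of the growth hormone receptor, was higher by 0.26 ± 0.04 (SE, adjusted p = 1.34e-05), Socs2 by 0.18 ± 0.04 (adjusted p = 0.000459) and Stat5b by 0.13 ± 0.05 (adjusted p = 0.0305). Stat5b was no longer called without old replicate 1 (0.10, adjusted p = 0.0883) or rejuvenated old replicate 5 (0.10, adjusted p = 0.0818). Ghr, the receptor itself, had medians of 4485 in old, 4257 in rejuvenated old and 9027 in young MSCs. It was not called after co-culture, but was called lower without old replicate 6 (-0.10, adjusted p = 0.0313). Its young level was higher than the old by 1.00 ± 0.04 (adjusted p = 2.02e-17), and in all 2 of these genes were higher and 4 lower in young MSCs.

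Of the other ligands, receptors and carriers, 5 of 10 passed the filter, and by limma 0 were called after co-culture, where 2 had an unadjusted p under 0.05 and edgeR and DESeq2 each called 1. Ins1, Ins2, Insrr and Igfbp1 had a median of 0 in each group, and Igfbpl1 had 7.00 in young and 0.45 in old MSCs. Insr, the insulin receptor, had medians of 1942 in young MSCs, 1195 in old and 1206 in rejuvenated old MSCs, with a difference of 0.07 ± 0.04 after co-culture (adjusted p = 0.119). Igf2bp1, which encodes a protein that binds Igf2 mRNA, had medians of 85.6 in old and 102 in rejuvenated old MSCs (0.31 ± 0.14, adjusted p = 0.0963). Igfals, the acid-labile subunit of the serum complex, differed by -0.42 ± 0.17 (adjusted p = 0.0511). Igfals was called without old replicate 2 (adjusted p = 0.0263), rejuvenated old replicate 5 (adjusted p = 0.0264) or rejuvenated old replicate 6 (adjusted p = 0.0486). In young against old MSCs 2 of the 5 were higher and 2 lower.

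Genes with the pattern most like a ligand or receptor over the 18 libraries were found from the root mean square difference of centred log2 values. For Igf1 they were Cxxc5 (0.0776), Rab9 (0.0825) and Pan3 (0.0860). For Igf1r they were Zeb1 (0.0644), Lemd2 (0.0658) and Sh2b1 (0.0673), and for Igf2r Scd2 (0.100), Svil (0.109) and Abca9 (0.111). Igf2 had no gene as close, the nearest being Gdpd2 (0.275), Egln3 (0.287) and Dio3os (0.318). Gdpd2 had medians of 699.8 in young MSCs, 373 in old and 1297 in rejuvenated old MSCs, the same order of groups as Igf2.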

How the data were processed

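RNA from 18 cultures was sequenced with a stranded mRNA kit. According to the submitters' processing notes, the authors used HISAT2, StringTie, featureCounts and DESeq2 with the genome mm10. Versions, annotation, strand setting and filters are not given in the sources used here. The deposited values are a signal, the read count of a gene divided by 1 size factor per library, and replicates were not pooled. Whole reads were recovered for 100% of values (tolerance 0.01 of a read).

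The test was that of limma 3.58.1 (R 4.3.3) on log2(value + 1), two-sided, in 1 fit of all 18 libraries over 14353 genes whose mean reached 10, with Benjamini-Hochberg adjustment over all of them and calls at an adjusted p under 0.05. edgeR 4.0.16 and DESeq2 1.42.0 were run on the recovered reads as alternatives. The script was tested on simulated counts. Exon lengths came from GENCODE, positions from RefSeq (GRCm38.p6), which held 25275 of the 27179 genes. Figures used matplotlib 3.10.9. No replicates were duplicates: the chi-square per degree of freedom between replicates of a group was 2.60 to 23.7.

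The members and lists were chosen with earlier results of these data known. Named were all members, and of each list around the IGF system the genes with the smallest adjusted p after co-culture (at most 6) and its defining genes; other genes of these lists, and those of the marker lists, were named after their values were seen. Alternatives covered pseudocount, filter, scaling, fit, replicate block, count tests and left-out libraries.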

Additional observations from a re-analysis of the deposited data

Results flagged for a closer look

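Of 30 sets of 6 libraries (10 members in 3 groups), 3 had a library far from the others, where chance gives about 1 in 20. Igfbp6 in rejuvenated old replicate 1 had 319 normalized counts, next to 40.05 in the nearest library, a gap of 0.954 of the range. Igf1r in old replicate 2 had 1698, next to 1629, a gap of 0.662 of the range. Igf2 in young replicate 2 had 400.4, next to 366.5, a gap of 0.654 of the range.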

How the results depend on the processing

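Over the alternatives, including left-out libraries, 660 of 669 member differences (without those of Igfbp2 from young MSCs) kept their side of the threshold, and each called difference kept its direction. DESeq2 gave no adjusted p for Igfbp6. Without a limit on size, 6 members were called higher after co-culture, and 3 where the log2 fold change also had to reach 0.5 in size (4.33% of all genes). With each gene scaled by the median of its chromosome, Igf1r after co-culture (0.04) and Igf2r in young against old MSCs (0.10) were no longer called; the scaling removes the shift of chromosomes 7 and 17. Igfbp7 after co-culture was not called with the same total per library (0.07, adjusted p = 0.0572), with 2 groups in the fit (0.09, adjusted p = 0.0591) or with the replicate block (0.09, adjusted p = 0.0503). Igfbp6 after co-culture was called by edgeR (1.51, adjusted p = 0.0384); the cause was not tested.

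Leaving out each library in turn gave 5 to 6 members called higher and 1 lower after co-culture, and of the 9 members other than Igfbp2 8 higher and 1 lower in young against old and 7 higher and 2 lower in young against rejuvenated old MSCs (41.6% and 44.1%, 41.5% and 44.1% of all genes with all libraries). The replicate numbers of the groups did not pair the libraries: same-numbered libraries of old and rejuvenated old MSCs correlated at -0.15 to 0.07. With the numbers as a block, 5 members were called higher after co-culture, the loss being Igfbp7, and 5769 genes in all against 5971 without it. On whole reads edgeR called 6213 genes after co-culture and DESeq2 6345. At 0 to 8 reads, Igfbp2 in the old groups is limited by depth.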
